A study of Mus with 5 samples.

Results

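The genes described here are 10 components of the BMP signalling chain, taken by their Ensembl identifiers from the 12857 genes with deposited values. They comprise 4 receptors (*Bmpr1a*, *Acvr1*, *Acvrl1* and *Bmpr2*), 4 Smads that pass the signal on (*Smad1*, *Smad5*, *Smad9* and *Smad4*) and 2 inhibitory Smads (*Smad6* and *Smad7*). All 10 identifiers were found, and all 10 passed the filter on low values. They were chosen by their role in the pathway, with earlier results of these data known. RNA-seq was performed on E14.5 mouse hearts from which the atria had been removed, so that ventricles and valves remained. The transgenic group consisted of 3 pools of hearts with the genotype *Nkx2.5* Cre/+;*Bmp2* tg/+, and the control group of 2 WT pools, with 4 hearts in each pool. The *Nkx2.5* locus, active in cardiac progenitors, drives the Cre that deletes a floxed stop cassette, after which a CAG promoter in the *Rosa26* locus transcribes *Bmp2* cDNA of the mouse together with an IRES-eGFP reporter. The labels name Cre and the transgene together in one group and WT alone in the other. Whether the WT pools carried the Cre allele is not stated. For embryo survival the paper reports a cross of *Bmp2* tg/+ males with *Nkx2.5* Cre/Cre females. Embryos of that cross without the transgene are listed as *Nkx2.5* Cre/+. The paper does not say whether the WT hearts for RNA-seq came from that cross. The authors excluded a further WT pool because it clustered poorly with the other WT samples, and it was not analysed here. The 2 WT pools kept were thus selected for their agreement, so their spread may understate that between WT pools.

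BMPs are secreted ligands that bind a complex of type I and type II serine/threonine kinase receptors on the cell surface. The type II receptor activates the type I receptor, which phosphorylates Smad1, Smad5 and Smad9, and these receptor-regulated Smads enter the nucleus with the common mediator Smad4 to regulate transcription. Smad6 and Smad7 oppose this signalling, and their transcription is itself raised by BMP signalling in many cell types. In the embryonic heart, BMP2 from atrioventricular canal myocardium acts on the neighbouring endocardium, which forms the cushions of the valves. The values here are RNA levels, so that receptor activity and Smad phosphorylation were not measured.

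The values were deposited as counts per 1000000 reads (CPM), and the reads recovered from them came to between 7427905 and 10564780 per pool. limma was applied to log2(CPM + 0.5), with Benjamini-Hochberg adjustment over the 12857 genes and a threshold of 0.05. A fold change on this scale slightly understates that of genes with few reads. Of all genes, 157 were higher and 205 lower in transgenic hearts, a split that became 125 higher and 251 lower when the libraries were rescaled to the same total. *Bmp2*, the ligand of the transgene, measured 23.0, 27.1 and 23.3 CPM across the transgenic pools, against 14.1 and 10.2 CPM in WT, and its reads do not separate transgene and endogenous transcripts. Transcript lengths were not used here, so levels are compared between pools and not between genes. Whether a lower level reflects fewer cells of a type or less RNA per cell cannot be told apart in pooled hearts.

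The inhibitory Smads and 1 of the signal-passing Smads were higher in transgenic hearts, whereas the receptors and the remaining signal-passing Smads did not pass the threshold. *Smad9* was raised 2.57-fold, *Smad6* 1.70-fold and *Smad7* 1.47-fold between the means of the pools. With limma, 3 of the 10 genes passed the threshold, compared with 2.82% of all genes. These 3 were called higher, as were 1.22% of all genes, and 0 were called lower, compared with 1.59% of all genes. Without adjustment, 4 of the 10 were higher and 2 lower at a limma p under 0.05, a level that 17.7% of all genes reached. Run on the recovered reads, edgeR's exact test called 3 higher and 1 lower, *Bmpr2* (3.75% of all genes called). Both edgeR's quasi-likelihood test (3.10% of all genes) and DESeq2 called 3 higher and 0 lower. The DESeq2 share was 2.11% of the 10862 genes to which it gave an adjusted p. Median log2 fold changes were 0.65 over the 2 inhibitory Smads, 0.02 over the 8 receptors and signal-passing Smads and 0.00452 over all genes. The genotypes did not overlap for 7 of the 10 genes, as for 35.7% of all genes. *Smad6*, *Smad7*, *Smad9* and *Bmpr2* are also in the study's own list of changed genes, which was made from these libraries and is not independent evidence of their direction. For *Smad6* the paper also reports ectopic expression in transgenic ventricles at E14.5, seen by in situ hybridisation.

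**Figure D1:**
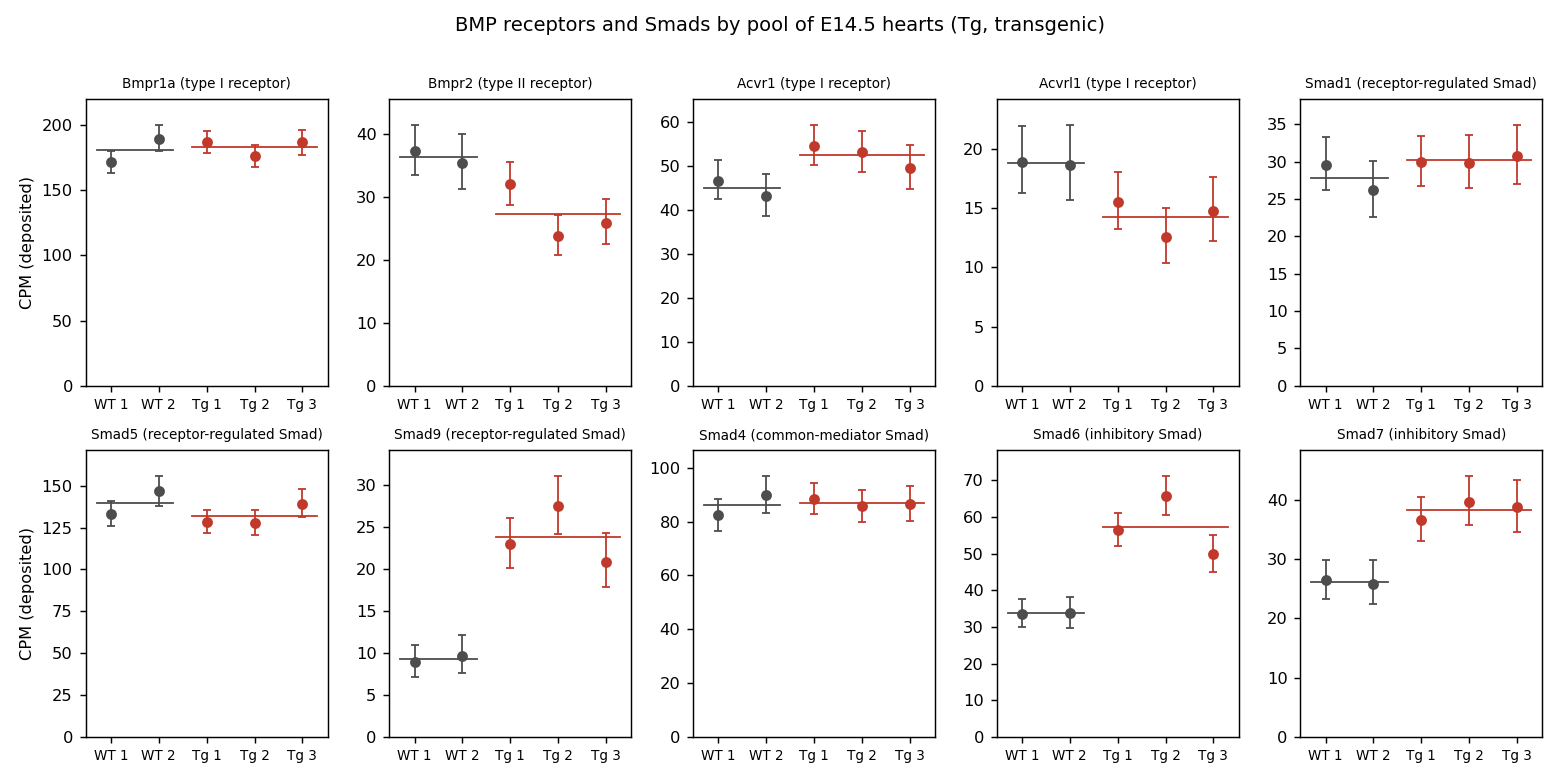
CPM of each of the 10 genes in the 2 WT pools (grey) and the 3 transgenic pools (red, Tg), with 95% Poisson intervals for the reads of that pool as bars and the group means as lines. *Smad9*, *Smad6* and *Smad7* are higher in every transgenic pool, for *Smad9* at 20.9 to 27.5 CPM against 8.88 and 9.65 CPM, while the pools of *Bmpr1a*, *Smad5* and *Smad4* overlap.

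*Smad9* (ENSMUSG00000027796, chromosome 3 of GRCm38, 54755455 to 54801662) encodes the receptor-regulated Smad also known as Smad8. It was at 23.0, 27.5 and 20.9 CPM in transgenic pools 1, 2 and 3 and at 8.88 and 9.65 CPM in WT pools 1 and 2. Behind these values were 240, 256 and 167 reads for the transgenic and 84 and 72 reads for the WT pools. The lowest transgenic pool was therefore still well above the higher WT pool, and the 95% Poisson intervals of the reads did not overlap, with 17.8 CPM as the lowest bound in the transgenic pools and 12.2 CPM as the highest in the WT pools. limma gave a log2 fold change of 1.31 (standard error 0.13, 95% interval 1.03 to 1.58, adjusted p = 2.84e-05), larger than that of 99.8% of all genes.

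The other receptor-regulated Smads did not pass the threshold. *Smad1* (ENSMUSG00000031681, chromosome 8, 79338395 to 79399428) measured 29.9, 29.8 and 30.8 CPM across the transgenic pools, against 29.6 and 26.1 CPM in WT. All transgenic pools were above both WT pools, although the lowest of them was above WT pool 1 by less than the counting SD of 1.82 CPM. Its log2 fold change was 0.12 (standard error 0.09, 95% interval -0.08 to 0.31, limma adjusted p = 0.539). *Smad5* (ENSMUSG00000021540, chromosome 13, 56703010 to 56742378) was at 128, 128 and 139 CPM against 133 and 147 CPM. Its pools overlapped, and its log2 fold change was -0.08 (standard error 0.06, 95% interval -0.22 to 0.05, limma adjusted p = 0.521). The upper ends of these intervals correspond to 1.24-fold for *Smad1* and 1.04-fold for *Smad5*, against a lower end of 2.05-fold for *Smad9*.

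*Smad9* thus took a larger share of the reads of the receptor-regulated Smads in transgenic hearts. It made up 12.7% (95% Wilson interval 11.2 to 14.2), 14.8% (13.2 to 16.6) and 10.9% (9.47 to 12.6) of the *Smad1*, *Smad5* and *Smad9* reads in transgenic pools 1, 2 and 3. The share was 5.18% (4.20 to 6.36) and 5.29% (4.22 to 6.61) in WT pools 1 and 2, and these intervals cover counting error only. The shares are not corrected for gene length, so they compare pools and do not give the proportions of transcripts. The summed level of the 3 genes overlapped between genotypes, at 181 to 191 CPM in transgenic and at 172 and 182 CPM in WT pools.

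*Smad4* (ENSMUSG00000024515, chromosome 18, 73634790 to 73703791), the partner shared by BMP and TGF-beta signalling, showed a difference near 0. Its transgenic pools had 88.4, 85.8 and 86.4 CPM, all within the range of 82.4 to 89.8 CPM set by the WT pools. The log2 estimate of 0.01 (limma adjusted p = 0.939, standard error 0.06) had a 95% interval of -0.12 to 0.15, which reaches from 0.919-fold to 1.11-fold.

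*Smad6* (ENSMUSG00000036867, chromosome 9, 63953076 to 64022085), an inhibitory Smad that acts mainly on BMP signalling, measured 56.4, 65.7 and 49.9 CPM across the transgenic pools, against 33.6 and 33.8 CPM in WT. The groups were well separated, with a log2 fold change of 0.75 (standard error 0.10, 95% interval 0.54 to 0.95, limma adjusted p = 0.000626). The transgenic pools differed among themselves by more than read sampling gives, with an SD of 7.94 CPM against 2.50 CPM from counting alone. In the WT pools the SD of 0.111 CPM was smaller than the 2.01 CPM from counting, so their close agreement does not measure how well the level repeats between pools.

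*Smad7* (ENSMUSG00000025880, chromosome 18, 75367365 to 75395935), which inhibits both BMP and TGF-beta signalling, measured 36.6, 39.7 and 38.8 CPM across the transgenic pools, against 26.4 and 25.9 CPM in WT. The groups did not overlap, and the transgenic pools were closer to each other than those of *Smad6*, with an SD of 1.58 CPM against 2.05 CPM from counting alone. Its log2 fold change was 0.54 (standard error 0.08, 95% interval 0.37 to 0.72, limma adjusted p = 0.00206). Without WT pool 1 or WT pool 2 it was 0.56 or 0.53, but limma no longer called it (adjusted p = 0.0525 and 0.0635; 2.35e-05 to 0.0967 over 15 alternatives). Both fits assume that the remaining WT pool varies as the transgenic pools do.

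The intervals of *Smad6* and *Smad7* overlapped, and the ratio of *Smad6* to *Smad7* CPM overlapped between genotypes as well, at 1.54, 1.65 and 1.29 in the transgenic pools and at 1.27 and 1.31 in the WT pools. The ratio in transgenic pool 3 lay between those of the WT pools, and the ratios in pools 1 and 2 were above both.

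**Figure D2:**
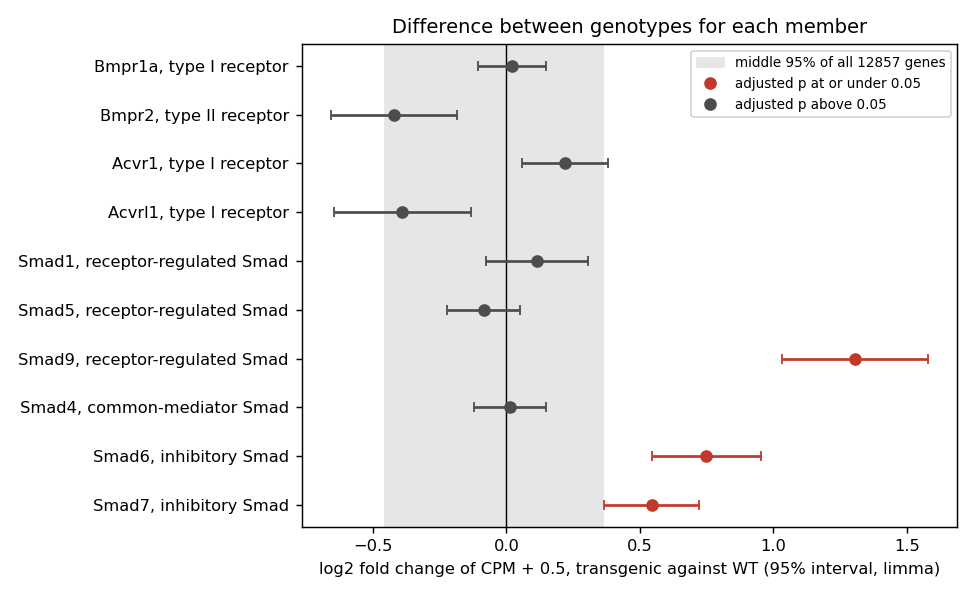
Log2 fold change of each gene, transgenic against WT, with its 95% interval from limma as a bar and genes with an adjusted p at or under 0.05 in red. The grey band holds the middle 95% of all genes, from -0.45 to 0.36, and the *Smad9*, *Smad6* and *Smad7* intervals lie above it, with 1.03, 0.54 and 0.37 as their lower ends.

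None of the 4 receptors passed the threshold with limma. At an unadjusted limma p under 0.05 there were 3, of which 1 was higher and 2 were lower, while among all genes 17.7% had such a p. edgeR's exact test called 1, *Bmpr2*, and edgeR's quasi-likelihood test and DESeq2 called 0. Log2 fold changes of the receptors lay between -0.42 and 0.22.

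*Bmpr2* (ENSMUSG00000067336, chromosome 1, 59764279 to 59878081) encodes the type II receptor that is specific to BMPs. It measured 31.9, 23.7 and 25.9 CPM across the transgenic pools, against 37.2 and 35.4 CPM in WT, so that every transgenic pool was below both WT pools. Its log2 fold change of -0.42 (standard error 0.11, 95% interval -0.66 to -0.19) had a limma adjusted p of 0.0522, just outside the threshold. The adjusted p-value ranged from 0.0108 to 0.331 over the 15 alternatives, and the gene was called lower in 5 of them. Transgenic pool 1 was the nearest to the WT pools. Without it *Bmpr2* was called, with a log2 fold change of -0.54 (limma adjusted p = 0.0108).

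*Acvrl1* (ENSMUSG00000000530, chromosome 15, 101128522 to 101145336) encodes ALK1, a type I receptor for BMP9 and BMP10 that is made mainly by endothelial cells. It measured 15.5, 12.6 and 14.8 CPM across the transgenic pools, against 18.9 and 18.6 CPM in WT. As for *Bmpr2*, all transgenic pools were below both WT pools, which held for 18.0% of all genes. The log2 fold change was -0.39 (standard error 0.12, 95% interval -0.65 to -0.13), and it did not pass the threshold (limma adjusted p = 0.0956, 0.0741 to 0.371 over the 15 alternatives). With 117 to 179 reads per pool it was among the least covered of the 10 genes, and the counting SD in the transgenic pools, 1.25 CPM, was close to the SD of 1.53 CPM between them.

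*Acvr1* (ENSMUSG00000026836, chromosome 2, 58446438 to 58566828) encodes ALK2, a type I receptor that endocardial cells need to form the atrioventricular cushions. It measured 54.5, 53.0 and 49.5 CPM across the transgenic pools, against 46.6 and 43.2 CPM in WT, and so did not overlap. All transgenic pools were the higher ones, as for 17.7% of all genes. The log2 fold change of 0.22 (standard error 0.08, 95% interval 0.06 to 0.38) did not pass the threshold (limma adjusted p = 0.137, 0.0851 to 0.523 over the 15 alternatives).

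*Bmpr1a* (ENSMUSG00000021796, chromosome 14, 34411061 to 34503336) encodes ALK3, the main type I receptor of BMP2 in the developing heart. The transgenic pools had 187, 176 and 187 CPM, which lay within the 172 and 189.5 CPM of the WT pools. limma estimated a log2 fold change of 0.02 (standard error 0.06, 95% interval -0.11 to 0.15, adjusted p = 0.897), or 0.929-fold to 1.11-fold. A change of *Bmpr1a* of the size seen in *Smad7* lies outside that interval.

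Ratios within a pool show the same data without the scaling of the libraries. The ratio of *Smad6* and *Smad7* to *Smad1*, *Smad5*, *Smad9* and *Smad4*, as summed CPM, was 0.345, 0.389 and 0.320 across the transgenic pools, against 0.236 and 0.219 in WT. The groups did not overlap, although *Smad9* is in the denominator. The ratio of *Smad9* to *Smad1* was 0.767, 0.921 and 0.679 in the transgenic pools against 0.300 and 0.369 in the WT pools. Relative to *Smad9*, the inhibitory Smads were lower in transgenic hearts, with *Smad6* to *Smad9* ratios of 2.46, 2.39 and 2.39 against 3.79 and 3.50.

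Among the receptors, the ratio of *Bmpr2* to *Acvr1* was 0.586, 0.447 and 0.523 across the transgenic pools, against 0.798 and 0.820 in WT, and that of *Acvr1* to *Acvrl1* was 3.52, 4.22 and 3.36 against 2.46 and 2.32. Neither overlapped between genotypes. The summed CPM of the type I receptors *Bmpr1a*, *Acvr1* and *Acvrl1* did overlap, at 242 to 257 CPM in transgenic and at 237 and 251 CPM in WT pools. These ratios were chosen after the values were seen, and they are given as descriptions without a test.

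**Figure D3:**
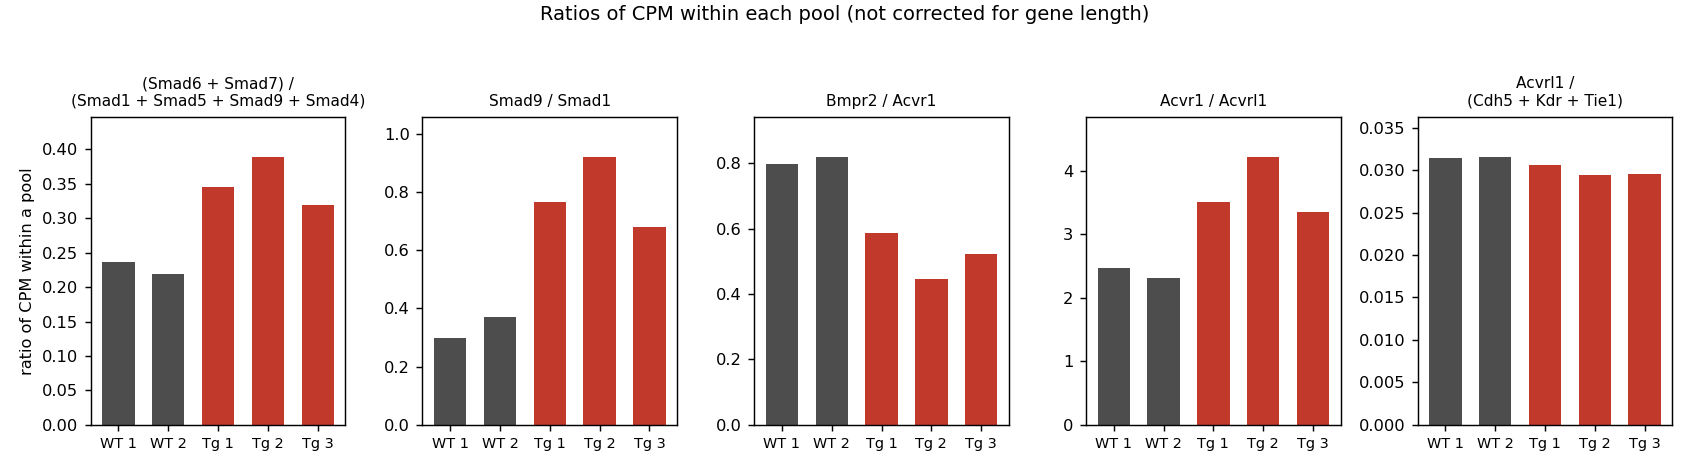
Ratios of CPM within each pool, not corrected for gene length, in the 2 WT pools (grey) and the 3 transgenic pools (red). None of the 5 ratios shown overlaps between genotypes, but they were chosen after the values were seen. Other ratios, such as *Smad6* to *Smad7*, did overlap. That of *Acvrl1* to *Cdh5*, *Kdr* and *Tie1*, markers taken from the study's list of changed genes, lies between 0.0295 and 0.0316 in the 5 pools.

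Endothelial markers were lower in the same pools as *Acvrl1* and *Bmpr2*. Of 12 endocardial and endothelial markers listed, 3 were paired with identifiers in the sources, and these were *Cdh5*, *Kdr* and *Tie1*. Their summed level was 506, 426 and 499 CPM in the transgenic pools and 603 and 590.2 CPM in the WT pools, and limma called *Kdr* and *Tie1* lower (adjusted p-values of 0.00286 and 0.0277) but not *Cdh5* (adjusted p = 0.0563). These calls were not stable, with *Kdr* called in 12, *Tie1* in 10 and *Cdh5* in 6 of 15 alternatives. Without either WT pool none of the 3 was called, and without transgenic pool 2 *Tie1* was not (adjusted p = 0.0624). Relative to that sum *Acvrl1* was at 0.0306, 0.0295 and 0.0296 in the transgenic pools and at 0.0314 and 0.0316 in the WT pools, again with every transgenic pool below both WT pools. The transgenic mean was 0.949 of the WT mean for this ratio and 0.760 for *Acvrl1* itself. For *Bmpr2* the ratio was 0.0632, 0.0557 and 0.0519 against 0.0617 and 0.0600, with overlap. For *Smad6*, which endothelial cells also express, the ratio was 0.112, 0.154 and 0.0999 against 0.0558 and 0.0572, without overlap. *Cdh5*, *Kdr* and *Tie1* were paired only through the study's list of genes changed in these libraries. A sum of genes chosen in that way is bound to differ between genotypes, so the ratios to it are descriptions only. The part of the endothelial markers in the receptor values was not tested.

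Markers of further cell types also differed between the genotypes. Of 8 pericyte and smooth muscle markers 4 were paired with identifiers, and limma called *Rgs5*, *Myh11* and *Abcc9* lower (in 12, 10 and 12 of 15 alternatives), with a summed level for the 4 genes of 285 to 327 CPM in transgenic and 395 to 403 CPM in WT pools. *Myl7*, a myosin light chain of embryonic myocardium that stays high in the atria, was the 1 paired gene of 4 atrial markers listed. It measured 653.3, 869 and 617 CPM across the transgenic pools, against 384 and 373 CPM in WT (limma adjusted p = 0.000166, called in 14 of 15 alternatives). Of 9 epicardial and fibroblast markers 3 were paired, of which *Tbx18* was called higher and *Pdgfra* lower, each in 12 of 15 alternatives. The calls of *Rgs5*, *Myh11*, *Abcc9*, *Tbx18* and *Pdgfra* were lost without WT pool 1 and without WT pool 2, and that of *Myh11* also without transgenic pool 2. None of the 10 cardiomyocyte, 8 cushion mesenchyme, 6 red cell and 4 white cell markers listed was paired, so the labelled tissue could not be checked against them. The genes that were paired come from the study's list of changed genes, so their calls do not describe the marker lists as a whole, and their part in the values of the receptors and Smads was not tested.

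Transgenic pool 2 was the farthest from the WT mean for several of the 10 genes. Of the 7 genes whose groups did not overlap, pool 2 lay farthest for 5, namely *Bmpr2*, *Acvrl1*, *Smad9*, *Smad6* and *Smad7*. Pool 1 lay farthest for *Acvr1* and pool 3 for *Smad1*. Over the whole table, pool 2 was the farthest for 52.6% of the genes whose groups did not overlap and for 67.1% of those called. It also had the highest *Bmp2* and *Myl7* and the lowest *Kdr*, *Cdh5* and *Tie1* of the 3 transgenic pools. Without pool 2 the log2 fold changes of *Smad9*, *Smad6* and *Smad7* were 1.20, 0.65 and 0.52 and all 3 were still called by limma (adjusted p-values of 0.000112, 0.000768 and 0.00801), while those of *Bmpr2* and *Acvrl1* were -0.33 and -0.30 (adjusted p-values of 0.162 and 0.292).

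**Figure D4:**
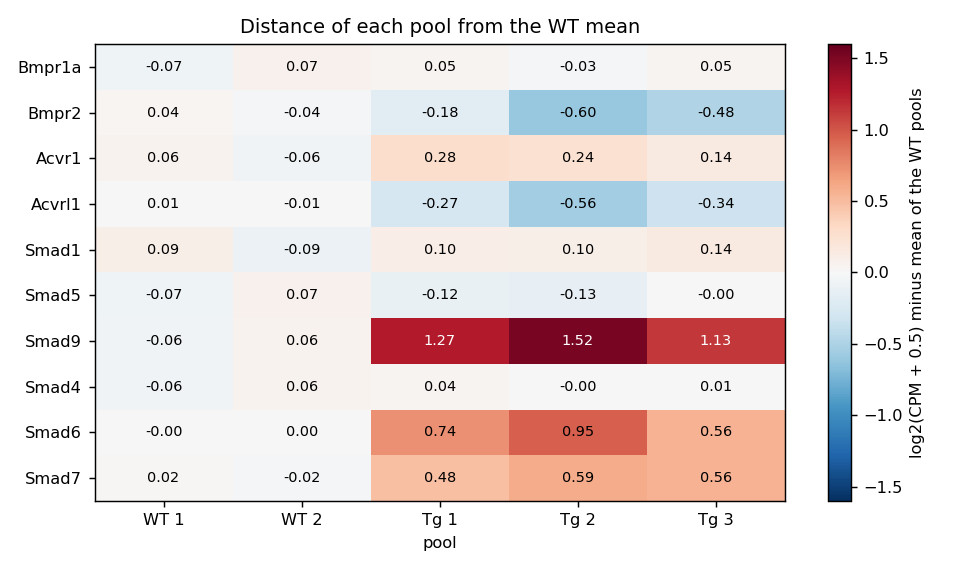
Log2(CPM + 0.5) of each gene in each pool minus the mean of the 2 WT pools, with red for higher and blue for lower values and the value written in each cell. Transgenic pool 2 has the largest distances, at 1.52 for *Smad9*, 0.95 for *Smad6* and -0.60 for *Bmpr2*, while the values of *Bmpr1a* and *Smad4* stay between -0.07 and 0.07 in all pools.

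Of 82 further genes of the pathway listed by their function, 9 were paired with identifiers, all through the study's own list of changed genes, so no share of the pathway can be given. They comprise ligands, a co-receptor, a regulator of Smads and targets, and none of the 18 extracellular antagonists, the 8 other receptors of the family or *Smad2* and *Smad3*. *Bmp2* was called higher. *Bmp10*, the trabecular ligand of ALK1, was called lower, at 15.2, 10.7 and 17.4 CPM in the transgenic pools against 33.4 and 32.2 CPM in the WT pools. The *Bmp10* call held in 13 of 15 alternatives. It was lost without the variance trend (limma adjusted p = 0.145) and without WT pool 1. The co-receptor *Tgfbr3*, or betaglycan, was also lower, at 49.0, 48.6 and 50.02 CPM against 64.8 and 64.6 CPM (log2 fold change -0.39, limma adjusted p = 0.00494, called in 12 of 15 alternatives and in neither fit without a WT pool). *Strap*, which encodes a receptor-associated protein that binds Smad7, was at 163, 170.3 and 169 CPM against 136 and 154 CPM and did not pass the threshold (limma adjusted p = 0.0767).

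Among the 12 BMP target genes listed, 5 were paired, again only through the study's list of genes changed in these libraries. Their calls therefore do not describe the listed targets as a whole. Of the 5 paired genes, 4 were called higher by limma. They were *Id2* and *Atoh8*, which encode helix-loop-helix proteins, and the cardiac transcription factors *Gata4* and *Tbx20*. *Id2* was called in 14, *Atoh8* and *Tbx20* in 13 and *Gata4* in 9 of 15 alternatives. Without the variance trend limma called none of these 4 genes. *Gata4* (limma adjusted p = 0.0411) was not called with rescaled libraries (0.0502) or without transgenic pool 1, transgenic pool 2, WT pool 1 or WT pool 2 (0.102, 0.0826, 0.307 and 0.241), *Atoh8* was not called without WT pool 2 (0.107) and *Tbx20* not without WT pool 1 (0.156). *Atoh8* rose by 1.08 in log2 (limma adjusted p = 0.00214, standard error 0.17), with 16.5, 21.6 and 14.8 CPM in the transgenic pools against 9.41 and 6.70 CPM in the WT pools. As for *Smad9* and *Smad6*, its highest value was in transgenic pool 2 and its lowest transgenic value in pool 3. *Id3* was at 79.9, 87.9 and 75.2 CPM against 71.4 and 61.3 CPM and was not called (limma adjusted p = 0.0676). Relative to *Id2*, *Smad6* was at 0.395, 0.455 and 0.406 in the transgenic pools and at 0.479 and 0.484 in the WT pools.

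The genes most like the 3 called Smads were sought among the 11482 other genes with a mean of at least 5 CPM, by the root mean square difference of the log2 values from their WT means over the 5 pools. For *Smad6* the nearest genes included *Adamtsl2*, which encodes a secreted matrix protein, and the T-type calcium channel gene *Cacna1g*, with differences of 0.051 and 0.078 on the log2 scale. *Adamtsl2* had 32.5, 38.2 and 30.5 CPM across the transgenic pools against 20.7 and 20.4 CPM in the WT pools. For *Smad9* the nearest genes were more distant. *Cdh20*, a cadherin gene, lay at 0.21, and the ribosomal protein gene *Rpl3*, whose reads may be shared with copies, at 0.22, while the nearest gene of all was not paired with a symbol. For *Smad7* the 3 nearest genes, at 0.047 to 0.066, were not paired with symbols either, and none of them passed the threshold.

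The 3 calls held in most of the other settings. *Smad9* and *Smad6* were each called in 14 of the 15 alternatives that could change a value and *Smad7* in 12. The log2 fold changes over all settings were 1.20 to 1.39 for *Smad9*, 0.65 to 0.84 for *Smad6* and 0.52 to 0.58 for *Smad7*. None of the 3 was called when limma was run without the trend of the variance on the mean, in which 10 genes of the whole table were called (adjusted p-values of 0.0581, 0.145 and 0.0967 for *Smad9*, *Smad6* and *Smad7*). With 3 pools against 2, the smallest two-sided p of an exact permutation test is 0.2, which all 3 genes reached, so the calls depend on variance shared across genes by limma. The labels describe separate pools of hearts. The limma p-values combine the spread of a gene between these pools with the variance trend over all genes. The variance of each gene had 15.6 degrees of freedom, most of them shared from the other genes. The p-values and intervals therefore do not measure the spread of that gene between pools alone.

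**Figure D5:**
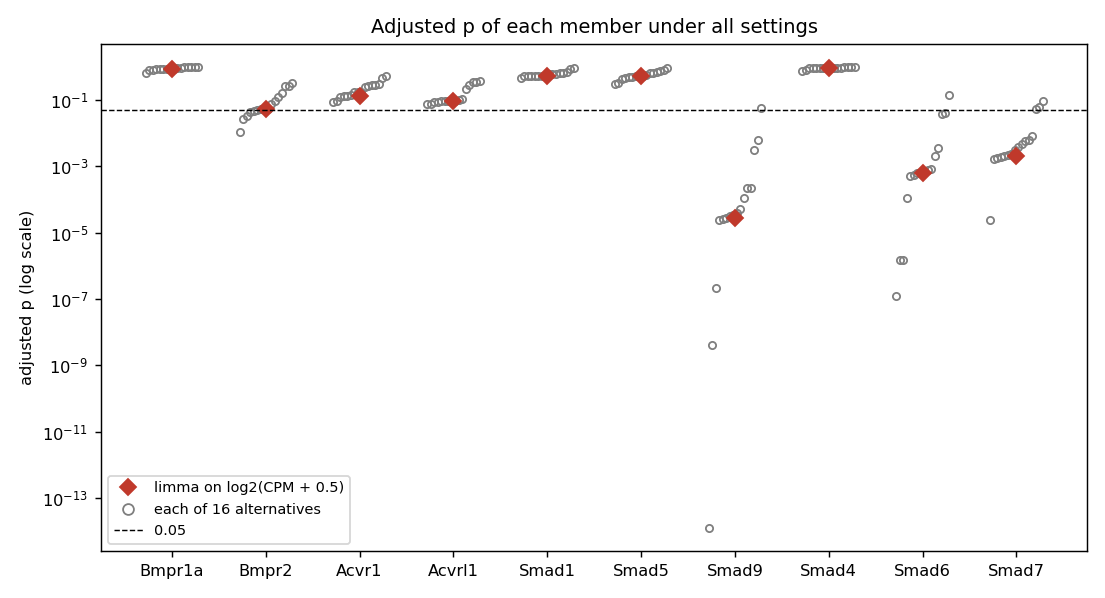
Adjusted p of each gene on a log axis, for limma on log2(CPM + 0.5) (red diamonds) and for each of 16 alternatives (circles), of which the fit without a filter repeats it, with the threshold of 0.05 as a dashed line. *Bmpr2* lies on both sides of the line, from 0.0108 to 0.331, while *Bmpr1a*, *Acvr1*, *Acvrl1*, *Smad1*, *Smad5* and *Smad4* lie above it in all settings.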

How the data were processed

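RNA of 12 E14.5 hearts per genotype had been pooled into 3 replicates, sequenced as single-end Illumina reads, trimmed with cutadapt and aligned and quantified with RSEM (GRCm38, Ensembl genes). 1 WT pool was excluded by the authors because it clustered poorly with the others. The authors deposited CPM values, reads per 1000000 of a scaled library size, for 12857 genes and 5 pools. Values were whole multiples of the worth of 1 read (tolerance 0.001) for 100% of genes in each pool, which gave the reads. The smallest value was 7 such steps in transgenic pool 1, 3 in WT pool 2 and 1 in the others. The Poisson and Wilson intervals cover counting error only. The limma intervals rest on the variance between pools, combined with its trend over all genes. Columns were matched to samples by name, and 0 were left unused.

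Log2(CPM + 0.5) was tested with limma 3.58.1 in R 4.3.3 (lmFit, eBayes with trend, no covariates), after a filter of at least 1 CPM in at least 2 pools, which removed 0 genes. As alternatives, the pseudocount was 0.1 or 1, the filter was none or a mean of at least 5 CPM, and limma was run without the variance trend, after quantile normalization, with rescaled totals, with a replicate block and with each pool removed once. edgeR 4.0.16 (exact and quasi-likelihood tests) and DESeq2 1.42.0 were run on the recovered reads. The tests were tested on simulated counts, drawn with the dispersions that edgeR fitted to these reads. The changed genes were taken from those with a mean of at least 5 CPM, so the recovery does not describe genes below that level. limma recovered 95.3% of 107 simulated log2 changes of 1 and 74.2% of 93 of 0.5, among 12857 genes, and called 14 unchanged genes.

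The 10 genes are all named. Further genes come from function and marker lists, limited to those that the study's supplementary list pairs with identifiers, with *Bmp2* and the genes past the threshold given by value. For each called member, the 3 genes with the most similar pattern are named where a symbol is known, except 1 that is not reported here. The members and lists were chosen with earlier results of these data known. Symbols of the members come from the definition of the gene set, and positions from the RefSeq table of GRCm38.p6, matched by symbol. Set tests were not run. Sequences were not used here.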

Additional observations from a re-analysis of the deposited data

How the results depend on the processing

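Without the variance trend, limma called 10 genes in all, 0 of the 10 receptors and Smads among them, and *Smad9*, *Smad6* and *Smad7* did not pass the threshold. This setting alters only the variance, so their log2 fold changes of 1.31, 0.75 and 0.54 are the same by construction. DESeq2 called 229 genes, and kept all 3. *Bmpr2* became called, as the 1 receptor or Smad called lower, with a mean value of at least 5 CPM (-0.42), libraries rescaled to the same total (-0.44), edgeR's exact test (-0.41) and the replicate block (-0.39), with adjusted p-values of 0.0459, 0.0447, 0.0268 and 0.0341. When single pools were removed, log2 fold changes ranged from -0.54 to -0.33 for *Bmpr2*, from 0.52 to 0.58 for *Smad7*, from -0.050 to 0.092 for *Bmpr1a* and from -0.048 to 0.076 for *Smad4*, the number of these genes called lower from 0 to 1, and the genes called in all from 43 to 464. The lowest numbers, 45 and 43 genes, came without WT pool 1 and WT pool 2, while 226 were called without transgenic pool 2. The sign of differences near 0 was not stable, with -0.050 for *Bmpr1a* and -0.048 for *Smad4* without WT pool 1, and -0.0048 for *Smad4* with rescaled libraries. *Acvr1*, *Acvrl1*, *Smad1* and *Smad5* kept their direction and stayed above the threshold in all 15 alternatives that could change a value. The fit without a filter repeats the reported one, since the filter removed 0 genes. For the 20 pathway and marker genes paired with identifiers, 241 of 300 values kept their direction and side of the threshold, 43 fell short of it, 16 newly passed it and 0 changed sign. The genes named for similar patterns were not recomputed. The causes were not tested.

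The pool numbers give 2 pairs, and the labels do not say that a number marks a shared litter or day. Deviations from the group means had correlations across genes of -0.026 between the pools numbered 1 and -0.050 between those numbered 2. With 2 WT pools the WT deviations mirror each other, so each value is only the reverse of that with the other WT pool. These correlations therefore cannot decide whether the numbers pair the pools, and the reported fit used no pairing. With the replicate block 655 genes were called, among them *Smad9*, *Smad6*, *Smad7* and *Bmpr2*. Transgenic pool 3 has no partner in that fit, so the log2 fold changes there are those of the fit without that pool. *Bmpr2*, at -0.39 in both, was not called without transgenic pool 3 (limma adjusted p = 0.0920). The alternatives are therefore not all independent of each other.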
